A study of Mus musculus with 25 samples.

Results

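Early thymocytes of the hosts in a study of donor and host cells, labelled young, were set against TN2 cells of normal mice to find which genes of the young cells lay away from the normal TN2 level. All arrays whose source label read young (n = 6) and all whose label read TN2 (n = 2) were taken, 8 of the 25 arrays in the series. A second set of normal cells, labelled TN3 (n = 2), gave the other end of the stage scale, so that a gene of the young cells could also be placed inside or outside the TN2 to TN3 range. The study as a whole asked how competition between cells bears on thymocyte turnover, and compared young cells with older cells that had or lacked competitors.

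T cell precursors in the thymus that lack CD4, CD8 and CD3 pass through ordered stages. TN2 cells carry CD25, which is part of the receptor for IL-2, together with CD44 and the receptor Kit, and still use transcription factors of multipotent progenitors. TN3 cells keep CD25 and lose CD44 and Kit, express the recombinase that rearranges the T cell receptor beta locus, and assemble the pre-T cell receptor with CD3 chains, under the control of Notch signals.

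The young cells were C57BL/6 host cells with the CD45.2 allele and the phenotype CD4-CD8-CD3-CD25+, with CD44 left unstated, and the labels call them TN2/3. The TN2 cells were wild-type control cells from B6/Ly5.1 mice, which carry the CD45.1 allele of Ptprc, of the phenotype CD4-CD8-CD3-CD25+CD44+. TN3 cells came from the same strain as CD25+CD44- cells. Old cells with competition (n = 6) came from B6/Ly5.1 donors, carried CD45.1 and had been held in wild-type hosts, and old cells without competition (n = 9) were F1 (WB x B6/Ly5.1) cells from Rag2-/-γc-/-KitW/Wv hosts. Young and TN2 cells therefore differed in strain, in being host or control cells and in how narrowly the phenotype was set. Ages, and whether arrays of a group came from separate mice, are not given in the labels, so p-values measure only the spread between these samples. In bulk samples, fewer cells of a type and less RNA per cell cannot be told apart.

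Each sample was hybridised to 1 Illumina bead array, and 5 chips held all 25. Young arrays 1, 5 and 6 were on chip 2 and young arrays 2, 3 and 4 on chip 4. TN2 array 1 and TN3 array 1 were on chip 5, and TN2 array 2 and TN3 array 2 on chip 3, so no chip held both young and TN2 cells, and chip and group cannot be told apart. Detected probes made up 46.7% to 50.1% of all probes on the young arrays and 43.9% and 44.6% on the TN2 arrays. Between the pair of TN2 arrays, 1146 of the 15533 genes differed by more than 1 on the log2 scale, against 194 to 1010 (median 439) over the 15 pairs of young arrays. The correlation across genes was 0.9498 to 0.9786 between young arrays and 0.9444 between the TN2 arrays. Xist, which is transcribed from the inactive X chromosome, read 9.14, 8.82 and 9.58 on young arrays 1, 5 and 6 and 4.11 to 4.16 on the other young arrays, and 9.26 on TN2 array 1 against 4.19 on TN2 array 2. Eif2s3y of the Y chromosome had the opposite pattern, so the young arrays of chips 2 and 4 also differed in sex markers, as did the TN2 arrays. Array 6 of the old cells with competition stood apart from its group, with 1617 genes more than 1 from the group mean, and the ranges and differences that use it are given also without it where they change.

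All values below are log2 intensities after background correction and quantile normalization, on which an undetected gene sits near 4. Fold changes are log2 differences between group means, young minus TN2, with the standard error (SE) of 1 limma model over all 25 arrays, and a gene passed when its p-value, adjusted over all genes by Benjamini and Hochberg, was below 0.05. In young cells, 133 genes were higher than in TN2 cells (0.856% of the genes) and 95 were lower (0.612%), 228 in all (1.47%). Of these, 97 higher and 36 lower genes differed at least 2-fold. Young and TN2 arrays did not overlap in 131 of the higher and 91 of the lower genes, whereas over all genes 2330 (15%) had groups that did not overlap, 1250 with young cells higher (8.05%) and 1080 with young cells lower (6.95%). The split depended on the scaling: higher genes made up 58.3% of those that passed after quantile normalization and 11.7% after median scaling, under which the median of all genes moved by -0.35.

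Among the lower genes, 47 had a young mean between the TN2 and TN3 means and 48 a mean below both. Among the higher genes, 11 had a young mean between the means and 122 a mean above both. With the stricter demand that young cells differ from TN2 and from TN3 in the same direction, both at an adjusted p below 0.05, 86 genes (0.554%) lay outside the range, 83 above it (0.534%) and 3 below it (0.0193%). The young cells shared both contrasts, so these are not independent tests. This split also depended on the scaling: after median scaling 141 genes lay above the range and 1413 below it. The 83 genes above the range had a median log2 level of 7.02 in young cells, 5.56 in TN2 cells and 5.41 in TN3 cells.

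**Figure D1:**
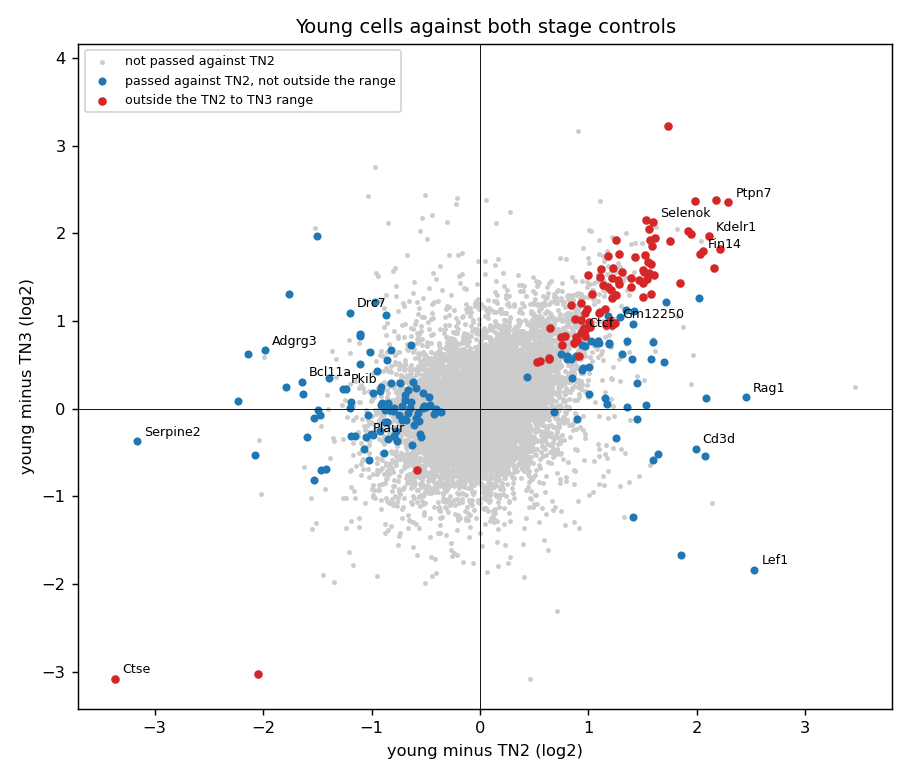
Log2 difference of young from TN2 cells (horizontal axis) and from TN3 cells (vertical axis) for each of the 15533 genes; grey, blue and red points are genes that did not pass against TN2, that passed without lying outside the range, and that lay outside the range. Named genes passed in each fit that left out 1 young or TN2 array. The 83 red points at the upper right are the genes above both controls, and Lef1, Rag1 and Cd3d lie to the right at or below the TN3 level.

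The rises over TN2 included genes of T cell receptor assembly. Of 17 measured TN3 and beta-selection genes, 5 rose, 0 fell and 12 did not pass, with a median log2 difference of 0.70 against 0.003 over all genes, and 16 of the 17 differences were positive. At an unadjusted p below 0.05 it held 9 higher and 0 lower, where 5.79% of all genes were higher and 6.08% lower. The 5 were Rag1, Cd3d, Lef1, Ets2 and Cd3e. None of them lay outside the TN2 to TN3 range.

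Rag1, the catalytic chain of the V(D)J recombinase, ran from 9.00 through a median of 9.22 to 9.48 on the young arrays, against 6.92 and 6.68 on the TN2 arrays and 9.05 and 9.18 on the TN3 arrays. Every young array lay more than 2 log2 units above both TN2 arrays and beside the TN3 arrays. The difference from TN2 was 2.45 ± 0.30 (SE, adjusted p = 6.63e-05) and that from TN3 was 0.13 ± 0.30 (adjusted p = 0.901). Cd3d, the CD3 delta chain of the receptor complex, had a lowest, median and highest young value of 9.85, 10.22 and 10.39, against 8.14 and 8.20 in TN2 cells and 10.56 and 10.67 in TN3 cells. Its young values left a wide gap to TN2 and ended just under TN3. The difference from TN2 was 1.99 ± 0.18 (adjusted p = 6.61e-07), and that from TN3, -0.46 ± 0.18, did not pass (adjusted p = 0.181). Lef1, a transcription factor that responds to Wnt signals and acts with Tcf7 in the T lineage, ranged from 6.48 through 7.43 to 7.83 in young cells, against 5.11 and 4.51 in TN2 cells and 9.03 and 9.33 in TN3 cells. Here the young arrays fell between the controls without touching either: the difference was 2.53 ± 0.38 from TN2 (adjusted p = 0.000904) and -1.84 ± 0.38 from TN3 (adjusted p = 0.00669). Rag1, Cd3d and Lef1 passed against TN2 in each of the 8 fits that left out 1 young or TN2 array.

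Ets2, an ETS family transcription factor, had young values from 6.60 to 7.58 with a median of 6.80, against 4.14 and 5.55 in TN2 cells, a difference of 2.08 ± 0.48 (adjusted p = 0.0261). Its call rested on TN2 array 1, without which the difference was 1.37 (adjusted p = 0.390), and it also ended without background correction. Cd3e, the CD3 epsilon chain, is named here after its values were seen, as the last of the 5, with 9.89 to 10.37 in young cells, 9.30 and 9.55 in TN2 cells and a difference of 0.68 ± 0.17 (adjusted p = 0.0366). The number of listed genes that rose was 3 without TN2 array 1, 4 or 5 in each of the other fits without 1 young, TN2 or TN3 array, and 6 without array 6 of the old cells with competition. With only the young, TN2 and TN3 arrays in the fit it was 3. Other listed members did not pass, among them Ptcra, which encodes the invariant pre-T alpha chain (difference 1.01, adjusted p = 0.188), and Dntt, the terminal transferase that adds bases at the joins of rearranged receptor genes (0.01, adjusted p = 0.999).

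Pld4, an exonuclease of the phospholipase D family, was not on the list but was among the largest rises. Young cells read 6.94 to 7.54, against 5.18 and 4.98 in TN2 cells and 6.89 and 7.17 in TN3 cells, a difference of 2.08 ± 0.48 from TN2 (adjusted p = 0.0266). The young and TN3 arrays overlapped, and the call against TN2 ended without TN2 array 1 (adjusted p = 0.100) or TN2 array 2 (adjusted p = 0.183). Among 12 measured Notch receptors and targets, 1 rose, Dtx1, a ubiquitin ligase that Notch induces, and 0 fell. The list had a median difference of 0.32, with 4 higher and 2 lower at an unadjusted p below 0.05 (5.79% and 6.08% of all genes). Dtx1 ranged from 6.07 to 7.01 in young cells, against 5.23 and 4.46 in TN2 cells and 7.00 and 7.00 in TN3 cells, a difference of 1.64 ± 0.38 from TN2 (adjusted p = 0.0282). Its call ended without young array 1 or 6 (adjusted p = 0.0520 and 0.0513) and without TN2 array 2 (adjusted p = 0.338), and also without background correction.

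**Figure D2:**
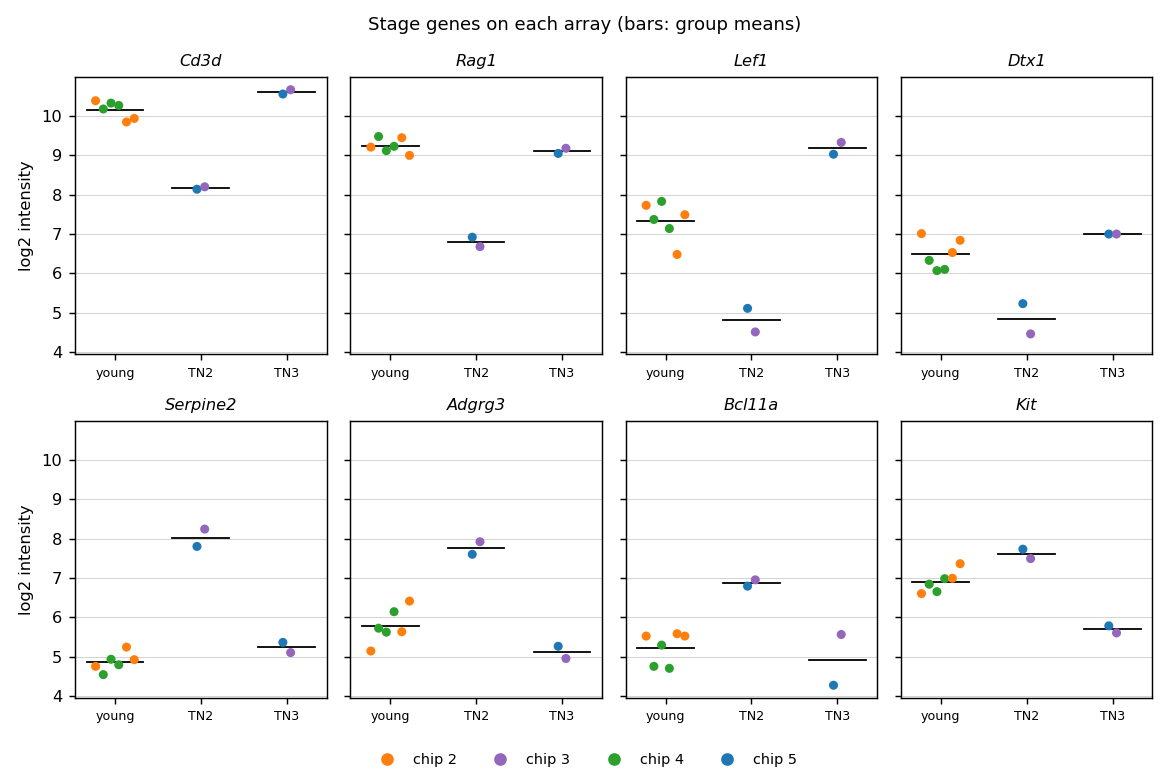
Log2 intensity of 8 stage genes on each young, TN2 and TN3 array, coloured by chip, with a bar at each group mean. Young arrays lie at the TN3 level for Rag1 and Serpine2, between the groups for Lef1, and just under the TN2 arrays for Kit, which did not pass.

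The falls included transcription factors of early progenitors. Of 17 measured early progenitor and TN2 genes, 3 fell, 0 rose and 14 did not pass, with a median difference of -0.42. At an unadjusted p below 0.05 the list held 6 lower and 0 higher (6.08% and 5.79% of all genes). The 3 were Bcl11a, Lyl1 and Tal1. Bcl11a, a zinc finger factor, ranged from 4.70 through 5.40 to 5.58 in young cells, against 6.79 and 6.95 in TN2 cells and 4.27 and 5.56 in TN3 cells, a difference of -1.64 ± 0.26 (adjusted p = 0.00192). All young arrays were below both TN2 arrays and overlapped the TN3 arrays, and 1 of its 2 probes had the opposite sign. Lyl1 and Tal1 are related basic helix-loop-helix factors. Lyl1 had 5.04 to 5.77 in young cells, 6.63 and 6.08 in TN2 cells and 4.18 and 4.16 in TN3 cells, where it was not detected, with a difference of -0.97 ± 0.21 from TN2 (adjusted p = 0.0197), and it was also higher than in TN3 cells (adjusted p = 0.0016). Its young arrays thus formed a step of their own between the controls. Tal1 was near the floor in young cells (4.10 to 4.28, detected on 1 array) and TN3 cells (4.09 and 4.28), against 5.29 and 4.67 in TN2 cells, a difference of -0.79 ± 0.15 (adjusted p = 0.00615). Without TN2 array 1 neither Lyl1 (adjusted p = 0.283) nor Tal1 (adjusted p = 0.199) passed, and the list then held 1 gene that fell. With only the young, TN2 and TN3 arrays in the fit, 0 genes of the list passed.

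The label genes did not pass against TN2. Cd44 read 5.08 to 6.37 with a median of 5.69 in young cells, against 6.60 and 6.08 in TN2 cells and 4.46 and 4.46 in TN3 cells. The ranges of young and TN2 cells overlapped, the difference was -0.66 ± 0.21 (adjusted p = 0.151), and it passed without young array 5 (adjusted p = 0.0288). Of its 7 probes, 1 had the opposite sign. Kit, the stem cell factor receptor, ranged from 6.60 through 6.91 to 7.36 in young cells, against 7.73 and 7.49 in TN2 cells and 5.78 and 5.60 in TN3 cells (difference -0.71 ± 0.37, adjusted p = 0.467). Il2ra, the gene of CD25, which the labels give all these cells, was dim: 5.15 to 5.65 in young cells, 4.62 and 4.42 in TN2 cells and 4.40 and 4.13 in TN3 cells, where it was not detected. Every young array lay above both TN2 arrays, yet the difference of 0.91 ± 0.24 narrowly missed the threshold (adjusted p = 0.0595). Of 21 alternatives, Cd44 passed against TN2 in 3 and Il2ra in 1. Against TN3, where 3.67% of all genes passed in limma, young cells were higher in Cd44 (1.22 ± 0.21, adjusted p = 0.00184) and Il2ra (1.16 ± 0.24, adjusted p = 0.00721). Kit did not pass against TN3 (1.21 ± 0.37, adjusted p = 0.0670).

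Genes outside the progenitor list fell further. Serpine2, the secreted protease inhibitor nexin-1, had a lowest, median and highest young value of 4.54, 4.86 and 5.24, against 7.80 and 8.24 in TN2 cells and 5.36 and 5.10 in TN3 cells. Young and TN3 arrays lay together, far from TN2, with a difference from TN2 of -3.16 ± 0.41 (adjusted p = 0.000162). Adgrg3, an adhesion G protein-coupled receptor, ranged from 5.14 through 5.68 to 6.41 in young cells, against 7.60 and 7.92 in TN2 cells and 5.26 and 4.95 in TN3 cells, a difference of -1.98 ± 0.30 (adjusted p = 0.00106). Its young arrays spread upward from the TN3 level and none came within 1 log2 unit of TN2.

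In total 20 genes passed against TN2 in all 8 fits that left out 1 young or TN2 array, 9 higher and 11 lower in young cells. These genes were found after the values were seen. Among the lower ones, the largest fall after Ctse, Serpine2, Adgrg3 and Bcl11a was that of Pkib, an inhibitor of protein kinase A, with 4.16 to 4.79 in young cells against 5.60 and 5.71 in TN2 cells (-1.26 ± 0.13, adjusted p = 4.12e-06), although 1 of its 2 probes had the opposite sign. Drc7 followed at -1.20 ± 0.21 and Plaur, the urokinase receptor, at -1.05 ± 0.18. Rora, a nuclear receptor that innate lymphoid cells need, had 4.20 to 4.45 in young cells against 5.53 and 4.94 in TN2 cells (-0.91 ± 0.14, adjusted p = 0.000904). Garem2, Kif13a and Adamts16 fell by 0.83, 0.64 and 0.59 on the log2 scale. Of the 2 probes of Rora, and likewise of Adamts16, 1 had the opposite sign. Drc7 was detected on all 6 young arrays and Adamts16 on 0, which makes its level there a bound (at least 1.43-fold lower), and the other 5 were detected on 1 to 3 of them.

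Some transcripts of other blood cells were bright in young and in TN2 cells, but other members of the same lists lay near the floor. On the young arrays the myeloid genes Csf1r and Adgre1 read 4.12 to 4.38 and 4.13 to 4.57. Fcer1a of the mast cell list read 4.17 to 4.67 there, and Alas2 of the erythroid list 4.08 to 4.22. Of 19 measured myeloid and dendritic cell genes, 2 fell (Tyrobp and Itgax), 1 rose (Clec10a) and 16 did not pass, with a median difference of -0.16. The share that passed was 15.8%, against 1.47% of all genes. At an unadjusted p below 0.05 the list held 2 higher and 5 lower (5.79% and 6.08% of all genes). Summed as the mean log2 level over the list, the arrays ran from 5.17 to 5.59 in young cells, from 5.38 to 5.64 in TN2 cells and from 4.61 to 4.68 in TN3 cells. Tyrobp, the adaptor DAP12 of myeloid and NK cell receptors, had 6.13 to 7.15 in young cells, against 8.11 and 8.12 in TN2 cells and 5.14 and 4.13 in TN3 cells, a difference of -1.51 ± 0.34 from TN2 (adjusted p = 0.0234); the call ended without TN2 array 1 (adjusted p = 0.108) or array 2 (adjusted p = 0.149). Clec10a, a lectin of macrophages and dendritic cells, moved the other way, with 6.49 through 7.20 to 8.46 in young cells, against 5.68 and 5.49 in TN2 cells and 4.10 and 4.09 in TN3 cells, where it was not detected. It rose by 1.73 ± 0.44 over TN2 (adjusted p = 0.0436), a call that ended without young array 3, 5 or 6 or either TN2 array (adjusted p from 0.0686 to 0.254). Itgax, the CD11c integrin chain, lay near the floor at 4.09 to 4.52 in young cells against 5.14 and 4.74 in TN2 cells (-0.69 ± 0.13, adjusted p = 0.00794; 0.170 without TN2 array 1).

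Among 6 measured mast cell and basophil genes 0 passed (limma; 1 lower at an unadjusted p below 0.05), with 3 positive differences and a median of -0.01, and the highest of them, Cpa3, a carboxypeptidase of mast cells and early progenitors, had 8.11 to 8.81 in young cells, against 9.39 and 9.29 in TN2 cells and 5.13 and 6.10 in TN3 cells (difference -0.97, adjusted p = 0.403). Of 9 measured erythroid genes 0 passed either (1 lower at an unadjusted p below 0.05), with a median difference of -0.33. Hbb-b1, a beta globin gene that has a near-identical copy, ranged from 7.37 through 8.38 to 9.77 in young cells, against 10.01 and 10.42 in TN2 cells and 5.26 and 4.18 in TN3 cells (difference -1.68, adjusted p = 0.496; 2 of its 11 probes had the opposite sign). Hba-a1 of the alpha globin pair stayed between 4.08 and 4.84 on the young arrays and at 4.20 and 4.14 on the TN2 arrays. Of 13 measured NK, innate lymphoid and gamma-delta T cell genes 0 passed (0 at an unadjusted p below 0.05), and so did 0 of 8 double-positive and mature T cell genes (1 higher and 1 lower). The B cell list (7 measured, 6 positive differences) held 1 gene that rose, Rag1, which it shares with the T lineage. That was 14.3% of the list, against 1.47% of all genes, and 1 gene was higher and 1 lower at an unadjusted p below 0.05. The B cell marker Cd22 was not detected in young or TN2 cells. The thymic stroma list (14 measured) also held 1 that rose, Epcam, an epithelial adhesion molecule (1.58 ± 0.37, adjusted p = 0.0282), whose call ended without young array 2 or 5 or either TN2 array (adjusted p from 0.0502 to 0.223). On the stroma list 7.14% thus passed, the median difference was -0.05 and 5 of the 14 differences were positive. It held 2 higher and 1 lower at an unadjusted p below 0.05 (5.79% and 6.08% of all genes). The part of cells of these other types in the differences was not tested.

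Above the TN2 to TN3 range, the number of genes turned on the second array of each control. On the median over the 83 genes, the young arrays ran from 6.76 to 7.09, TN2 array 1 read 5.70 and TN2 array 2 read 5.02, and TN3 arrays 1 and 2 read 5.90 and 4.71. Both second arrays were on chip 3. Without TN2 array 2, 8 genes lay outside the range (7 above it), of which 7 belonged to the 86, and without TN3 array 2 there were 18. Without TN2 array 1 the number was 119 and without TN3 array 1 it was 121. The calls against TN2 moved in the same way: without TN2 array 2, 150 genes passed, 27 higher and 123 lower. On the same 83 genes, the old cells with competition, which shared chips 2 and 4 with the young cells, had array medians from 6.64 to 7.17, and the old cells without competition, on chips 1 and 5, from 6.15 to 6.40. On chip 5, which held TN2 array 1 together with 3 arrays of old cells without competition, those old cells lay a median of 0.22 above that TN2 array over the 83 genes and 0.03 above it over all genes. The 83 genes were chosen for young values above the TN2 and TN3 cells, that array included. A higher reading in another group was therefore partly built in, and the part of the chip was not tested.

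The genes named first among these act in different parts of the cell. Kdelr1, a receptor that returns proteins to the endoplasmic reticulum, had 7.62 to 8.16 in young cells, against 6.39 and 5.24 in TN2 cells and 6.75 and 5.17 in TN3 cells. The young arrays lay above all 4 control arrays, but the pair of TN2 arrays was itself more than 1 log2 unit apart; the difference was 2.11 ± 0.31 (adjusted p = 0.000791) and the old cells with competition read 7.41 to 8.26. Selenok, a selenoprotein of the endoplasmic reticulum, had 6.66 to 7.17 in young cells, against 5.67 and 4.95 in TN2 cells and 5.36 and 4.20 in TN3 cells, a difference of 1.59 ± 0.24 from TN2 (adjusted p = 0.000904) and 2.13 ± 0.24 from TN3 (adjusted p = 1.89e-05). Ctcf, the zinc finger protein that bounds chromatin loops, had the closest control arrays of these, with 7.39 to 7.91 in young cells, 6.73 and 6.67 in TN2 cells and 6.94 and 6.59 in TN3 cells (0.93 ± 0.14 from TN2, adjusted p = 0.00116). Old cells with competition overlapped the young cells for Selenok (6.37 to 7.03) and Ctcf (7.40 to 7.85, or 7.71 at most without array 6). Kdelr1, Selenok, Ctcf and Fin14 (2.03 ± 0.27, adjusted p = 0.000211) passed against TN2 in every fit that left out 1 young or TN2 array.

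Other genes above the range lost their calls without TN2 array 2. Rras2, a small GTPase, read 6.47 to 7.40 in young cells, 5.51 and 4.09 in TN2 cells, and differed by 2.21 ± 0.46 (adjusted p = 0.0146), with an adjusted p of 0.309 without TN2 array 2. Hnrnpdl, an RNA-binding protein, read 7.92 to 8.73 in young cells against 7.22 and 4.94 in TN2 cells (2.18 ± 0.53, adjusted p = 0.0368; 1 of its 4 probes had the opposite sign), and did not pass without young array 2, 3, 4, 5 or 6 (adjusted p from 0.0504 to 0.0684) or TN2 array 2 (adjusted p = 0.646). For Ndrg2, Spint2, Entpd5, Abracl and Ndufb5, a subunit of respiratory complex I, the differences from TN2 lay between 1.76 and 2.16 (1 of the 4 probes of Entpd5 had the opposite sign), and without TN2 array 2 none passed (adjusted p of 0.0808, 0.196, 0.227, 0.595 and 0.598). Akr1c12, an aldo-keto reductase, had TN2 values close together, 5.55 and 5.76 against 6.66 to 8.19 in young cells (1.95 ± 0.49, adjusted p = 0.0412), and lost its call without young array 1, 2, 3 or 4 or either TN2 array (adjusted p from 0.0655 to 0.223). Pcna, the sliding clamp of DNA replication and the 1 of 22 measured replication genes that rose, was not detected on any TN2 or TN3 array and had 4.97 to 5.71 in young cells, at least 2.20-fold higher than in TN2 cells (adjusted p = 0.0384; 0.0538 to 0.198 without young array 2, 3, 4 or 5 or either TN2 array). Of the replication list 4.55% passed, against 1.47% of all genes, with a median difference of -0.08 and 9 positive differences. It held 2 higher and 0 lower genes at an unadjusted p below 0.05 (5.79% and 6.08% of all genes). Of 20 measured mitosis genes 0 passed (median difference -0.22, with 2 higher and 1 lower at an unadjusted p below 0.05).

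**Figure D3:**
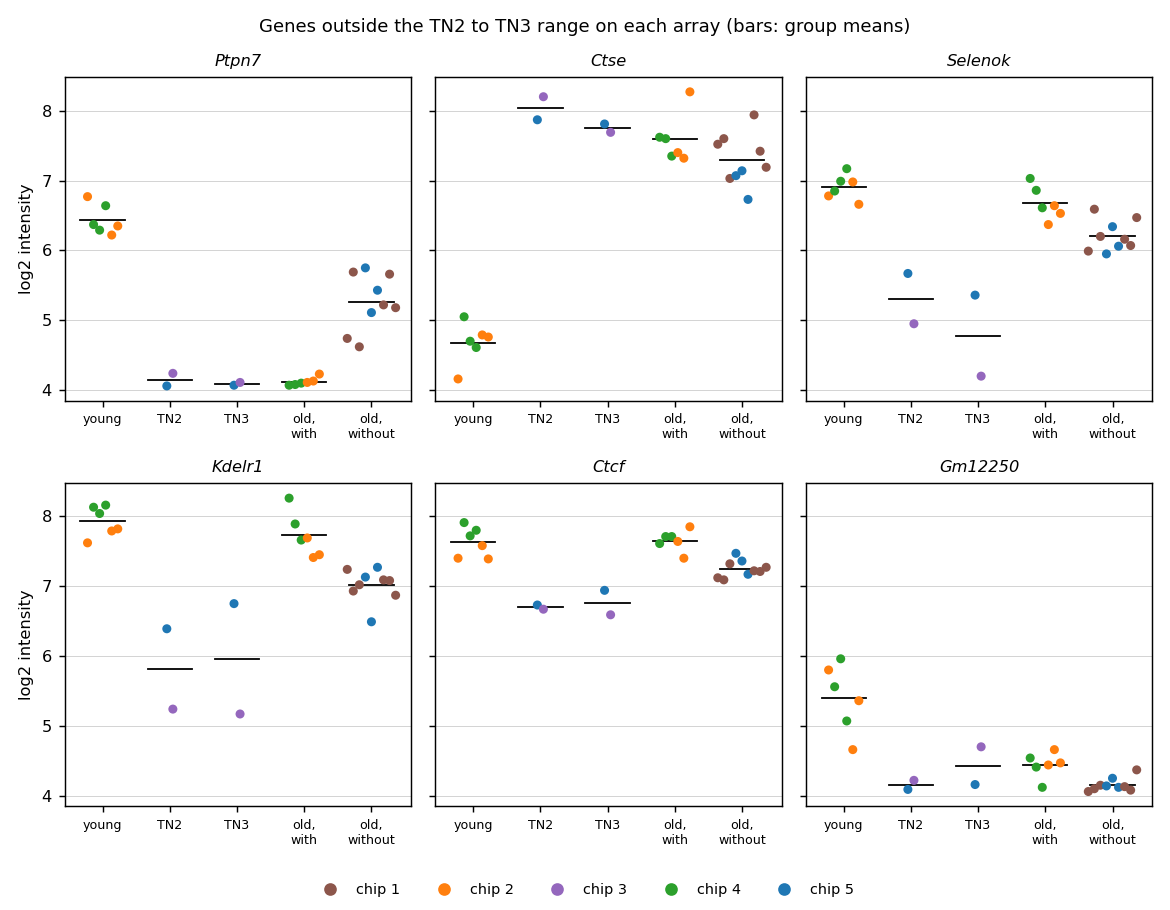
Log2 intensity of 6 genes outside the TN2 to TN3 range on every array of the 5 groups, coloured by chip, with a bar at each group mean; old, with and old, without stand for old cells with and without competition. Ctse is lowest and Ptpn7 highest in young cells, whereas for Selenok, Kdelr1 and Ctcf both old group means lie nearer to the young mean than to the TN2 mean, and the arrays of chip 3 lie lowest.

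A pair of genes far outside the range, Ctse and Ptpn7, lies on chromosome 1, which also holds Ptprc, the gene of CD45. Ctse, the aspartic protease cathepsin E, ranged from 4.16 through 4.73 to 5.05 in young cells, against 7.87 and 8.20 in TN2 cells and 7.81 and 7.69 in TN3 cells. The lowest control array stood more than 2 log2 units above the highest young array. The difference was -3.36 ± 0.26 from TN2 (adjusted p = 7.47e-08) and -3.08 ± 0.26 from TN3 (adjusted p = 4.51e-07), the largest fall among all genes that passed, with both of its probes of the same sign. Old cells with competition, which carry CD45.1 like the controls, read 7.32 to 8.27 (7.62 at most without array 6), and old F1 cells without competition read 6.73 to 7.94. Ctse was high in every group with B6/Ly5.1 ancestry and low in the young cells, the only C57BL/6 group and also the only host group.

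Ptpn7, a tyrosine phosphatase of blood cells that acts on MAP kinases, was the reverse. It ranged from 6.22 through 6.36 to 6.77 in young cells and was detected on all 6 arrays, against 4.06 and 4.24 in TN2 cells and 4.07 and 4.11 in TN3 cells, where it was detected on none. Its level in young cells was at least 4.55-fold higher than in TN2 cells (adjusted p = 3.00e-06). Old cells with competition read 4.07 to 4.23 (4.13 at most without array 6), at the level of the controls, and the old F1 cells 4.62 to 5.75, between them and the young cells. Ptpn7, Ctse and Selenok were the 3 genes that stayed outside the range in all 10 fits that left out 1 young, TN2 or TN3 array.

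B6/Ly5.1 mice carry, by breeding, a stretch of another strain's chromosome around Ptprc. Among the measured genes of that chromosome, Ptpn7 was the 19th from Ptprc and Ctse, on the same side, the 60th; the place of Ctse was looked up after its values were seen. Of the 100 measured genes nearest to Ptprc, 50 on each side, 3 passed (3%), Ptpn7, Snrpe and Rgs18, against 1.46% of all other genes and 1.8% of the other genes of the chromosome. Snrpe, a small nuclear ribonucleoprotein, had 5.37 to 6.34 in young cells against 4.86 and 4.30 in TN2 cells (1.36 ± 0.34, adjusted p = 0.0462), and lost its call without young array 3, 4, 5 or 6 or either TN2 array (adjusted p from 0.0597 to 0.388). Rgs18, a regulator of G protein signalling, was near the floor, with 4.09 to 4.74 in young cells against 5.37 and 4.73 in TN2 cells (-0.62 ± 0.14, adjusted p = 0.0276; 0.579 without TN2 array 1). Ptprc itself, which differs by allele between the groups, read 7.31 to 7.61 in young cells against 7.23 and 7.27 in TN2 cells (0.22 ± 0.25, adjusted p = 0.845), and 1 of its 3 probes had the opposite sign. Strain, host and group cannot be told apart in this comparison, and whether the probes bind both alleles equally was not tested.

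**Figure D4:**
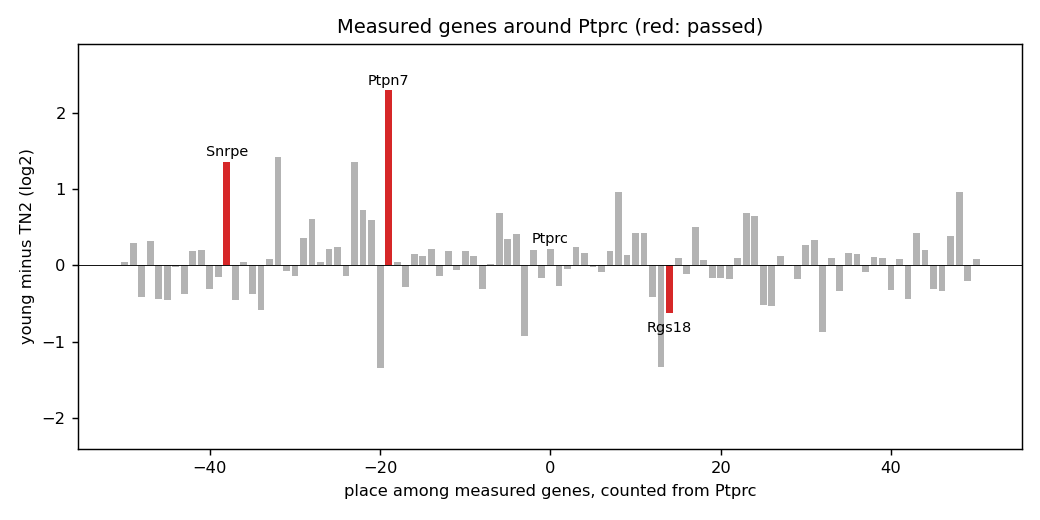
Log2 difference of young from TN2 cells for the 100 measured genes nearest to Ptprc and for Ptprc (place 0), ordered by position; red bars passed. Ptpn7 at place -19 stands highest, and Rgs18 and Snrpe are the other genes that passed.

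Some interferon response genes and class I genes of the major histocompatibility complex rose in young cells. Of 35 measured interferon response genes, 3 rose (Ifi47, Gbp3 and Rtp4), 0 fell and 32 did not pass (8.57% passed, against 1.47% of all genes), and 28 of the 35 differences were positive, with a median of 0.42. At an unadjusted p below 0.05, 15 were higher and 1 lower (5.79% and 6.08% of all genes). The mean log2 level of the list ran from 6.21 to 6.64 on the young arrays, above 5.91 and 6.05 on the TN2 arrays, 5.73 and 5.74 on the TN3 arrays, and 5.55 to 5.89 in old cells with competition (5.86 at most without array 6). Against TN3, where 3.67% of all genes passed, 8 of the 35 were higher in young cells and 0 lower. Of 20 measured genes of class I and peptide loading, 2 rose (H2-Q6 and H2-T22), 0 fell and 18 did not pass, with a median of 0.23 and with 6 higher and 0 lower at an unadjusted p below 0.05. Of 9 measured class II presentation genes 0 passed, also at an unadjusted p below 0.05.

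The promoters of 4 of these 5 genes were at hand from RefSeq (build GRCm38.p6) and are shown because all 5 genes rose over TN2. Each run holds the 250 bases before the transcription start, 5′ to 3′ on the gene's strand. Capitals mark matches to the interferon-stimulated response element, searched on both strands as GAAA, any 2 bases and GAAA; the overlapping matches of Gbp3 share bases.
Gbp3, chr3:142559794-142560043, plus strand: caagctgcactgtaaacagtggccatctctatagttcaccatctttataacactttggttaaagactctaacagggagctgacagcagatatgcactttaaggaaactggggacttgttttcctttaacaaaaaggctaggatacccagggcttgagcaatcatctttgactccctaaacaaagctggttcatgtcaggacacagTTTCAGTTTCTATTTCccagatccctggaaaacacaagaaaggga
H2-T22, chr17:36042743-36042992, minus strand: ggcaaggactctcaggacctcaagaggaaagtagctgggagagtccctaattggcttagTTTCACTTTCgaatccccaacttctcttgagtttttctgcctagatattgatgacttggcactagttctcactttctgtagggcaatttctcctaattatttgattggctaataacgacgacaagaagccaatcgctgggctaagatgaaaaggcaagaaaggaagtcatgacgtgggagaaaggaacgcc
Ifi47, chr11:49076337-49076586, plus strand: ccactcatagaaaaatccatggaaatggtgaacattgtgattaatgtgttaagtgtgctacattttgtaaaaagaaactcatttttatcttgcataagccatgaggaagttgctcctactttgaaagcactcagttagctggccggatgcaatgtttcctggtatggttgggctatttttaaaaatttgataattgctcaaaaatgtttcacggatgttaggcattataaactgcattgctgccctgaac
H2-Q6, chr17:35424600-35424849, plus strand: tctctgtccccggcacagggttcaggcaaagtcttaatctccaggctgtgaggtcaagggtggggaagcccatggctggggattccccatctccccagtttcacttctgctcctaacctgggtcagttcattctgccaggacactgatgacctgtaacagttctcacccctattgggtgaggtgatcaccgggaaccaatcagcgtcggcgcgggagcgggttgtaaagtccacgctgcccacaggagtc

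The table holds another start of Gbp3, whose window (chr3:142560106-142560355) had 0 matches. In the windows shown, the matches began 45 and 39 bases before the start in Gbp3 and 191 bases before it in H2-T22, and these letters were not found in the windows of Ifi47 and H2-Q6. Of 32851 promoters of this length, 2.98% held the element, as did 17 of the 28 interferon response genes and 3 of the 17 class I genes that had a promoter in the table, each counted over all its starts. A match describes the letters alone.

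Gbp3, a guanylate-binding GTPase that interferon gamma induces, had 6.27 through 6.62 to 7.17 in young cells, against 5.31 and 5.81 in TN2 cells and 4.84 and 5.33 in TN3 cells. All young arrays lay above the 4 control arrays and above the 4.85 to 5.89 of old cells with competition (5.52 at least without array 6). The difference was 1.12 ± 0.26 from TN2 (adjusted p = 0.0261), and Gbp3 also passed against TN3 (adjusted p = 0.000948). It was 1.12 ± 0.18 from old cells with competition (adjusted p = 0.000454), where 2.92% of all genes passed, and 0.97 ± 0.17 without array 6 (adjusted p = 0.000857), where 4.14% passed. These comparisons share the young arrays. Ifi47, an immunity-related GTPase, had 6.49 to 6.91 in young cells against 6.10 and 4.91 in TN2 cells (1.21 ± 0.25, adjusted p = 0.0158) and 5.73 and 5.79 in TN3 cells. Rtp4, an interferon-induced chaperone of receptors, had 6.57 to 7.67 in young cells against 4.54 and 5.67 in TN2 cells (2.02 ± 0.51, adjusted p = 0.0432) and did not pass against TN3 (adjusted p = 0.197). Each of these calls ended without at least 1 TN2 array. Without TN2 array 2 the adjusted p was 0.0522 for Gbp3, 0.439 for Ifi47 and 0.0653 for Rtp4, and without TN2 array 1 it was 0.281 for Gbp3 and 0.416 for Rtp4. Rtp4 also failed without young array 1, 3 or 6 (0.0725, 0.0824 and 0.0729). Unlike Gbp3, neither Ifi47 (0.29, adjusted p = 0.626) nor Rtp4 (0.73, adjusted p = 0.436) passed in limma against old cells with competition. Without array 6 of the old cells the same held (adjusted p = 0.687 and 0.244).

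H2-Q6 had 5.67 to 6.81 in young cells against 5.40 and 5.34 in TN2 cells and 5.25 and 5.57 in TN3 cells, a difference of 0.96 ± 0.21 from TN2 (adjusted p = 0.0184). H2-T22 had 6.21 to 6.77 in young cells against 5.85 and 5.31 in TN2 cells and 5.96 and 5.30 in TN3 cells (0.95 ± 0.24, adjusted p = 0.0407). Young arrays lay above the control arrays for both, but class I genes are close copies and their probes may read several of them. Against old cells with competition, H2-Q6 passed in limma (0.68 ± 0.14, adjusted p = 0.00812) and H2-T22 did not (-0.01, adjusted p = 0.995). Without array 6 of the old cells the adjusted p was 0.00497 and 0.992. In old cells without competition the mean of H2-Q6 was 6.335, against 6.326 in young cells. The call of H2-Q6 ended without TN2 array 1 (adjusted p = 0.0735) or 2 (0.133), and that of H2-T22 without young array 3, 4, 5 or 6 (0.0637 to 0.0713) or TN2 array 2 (0.428), and also without background correction. Without TN2 array 2, no interferon response gene and no class I gene passed, while the medians of the lists were 0.44 and 0.12. With only the young, TN2 and TN3 arrays in the fit, 0 genes of either list passed. Gm12250, the immunity-related GTPase also called Irgb10, was not on the list and was noticed after its values were seen. It had 4.66 to 5.96 in young cells and was not detected in TN2 cells, at least 2.22-fold higher there than in TN2 cells (adjusted p = 0.00594), and it passed in all 8 fits that left out 1 young or TN2 array.

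**Figure D5:**
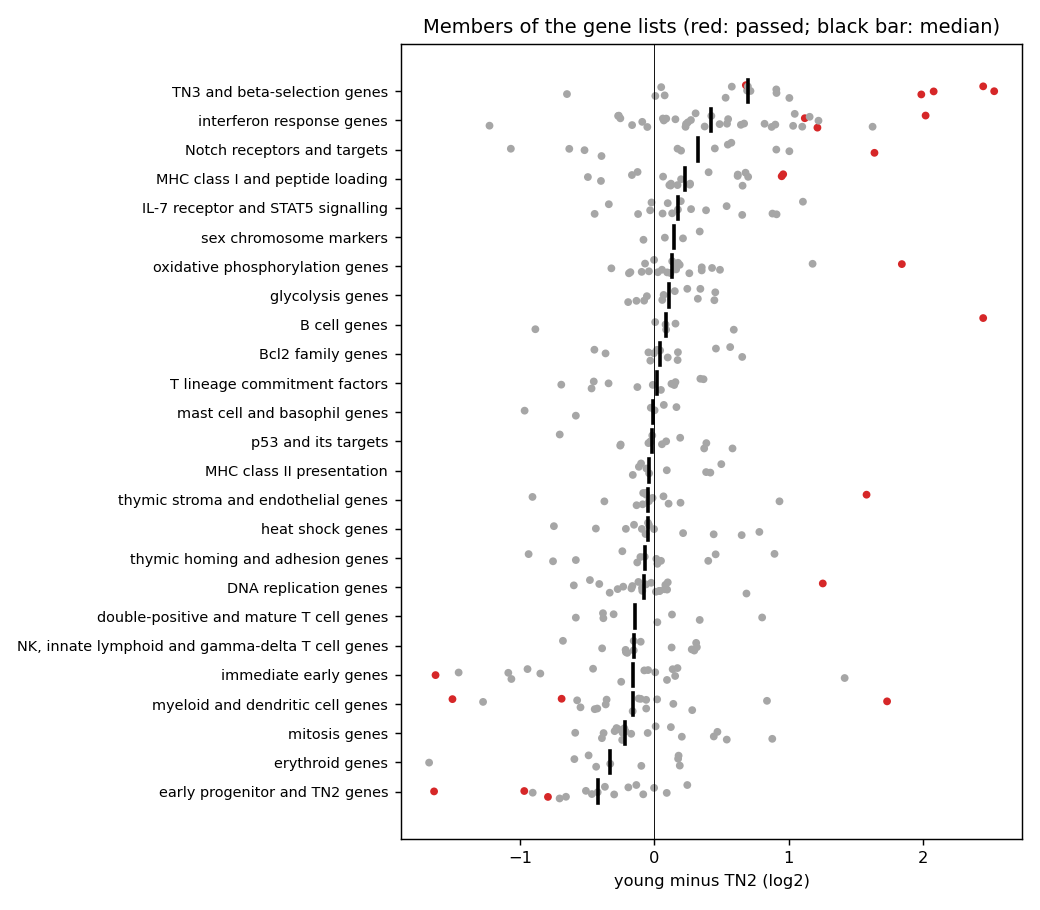
Log2 difference of young from TN2 cells for the measured members of 25 gene lists, ordered by the list's median (black bar); each point is a gene and red points passed. TN3 and beta-selection genes lie highest with a median of 0.70 and early progenitor genes lowest at -0.42.

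Several lists held no gene that passed in limma. They were 12 measured T lineage commitment factors (median difference 0.02), 17 genes of IL-7 receptor and STAT5 signalling (0.17), 12 glycolysis genes (0.11), 13 heat shock genes (-0.05), 13 Bcl2 family genes (0.04), 13 genes of p53 and its targets (-0.02) and 13 thymic homing and adhesion genes (-0.07). At an unadjusted p below 0.05 these lists held, in the same order, 0, 2, 0, 2, 0, 0 and 1 higher and 2, 0, 0, 1, 0, 1 and 2 lower genes. Of 23 oxidative phosphorylation genes only Ndufb5 passed, with 4 higher and 0 lower at an unadjusted p below 0.05 and a median difference of 0.13. Of 16 immediate early genes, which respond within minutes to a stimulus or to handling, 1 fell, Fos, with 4.08 to 4.91 in young cells against 5.89 and 6.67 in TN2 cells (-1.63 ± 0.30, adjusted p = 0.00626; 0.161 without TN2 array 2). The immediate early list had a median difference of -0.16. At an unadjusted p below 0.05 it held 1 higher and 5 lower (5.79% and 6.08% of all genes). A miss of the threshold with 2 TN2 arrays does not show equal levels.

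Below the range, Ctse was joined by Gprc5b and Pkd1l3. Gprc5b, an orphan receptor, had 4.17 to 5.74 in young cells against 6.36 and 7.54 in TN2 cells and 8.32 and 7.54 in TN3 cells (-2.05 ± 0.51 from TN2, adjusted p = 0.0432), and old cells with competition read 4.20 to 5.27. The arrays of both these groups lay below all 4 control arrays. Its call against TN2 ended without young array 1, 3, 5 or 6 or TN2 array 2 (adjusted p from 0.0664 to 0.437), and that of Pkd1l3, near the floor (-0.58 ± 0.14, adjusted p = 0.0312), ended without young array 2, 3, 4 or 5 or either TN2 array (0.0547 to 0.239). The remaining large falls each rested on a TN2 array. Without TN2 array 2, Cep250 (-2.24, adjusted p = 0.00290; then 0.151) and Sik1 (-2.08, adjusted p = 0.0146; then 0.386) did not pass. Without TN2 array 1, Cd180 (-2.14, adjusted p = 0.00121; then 0.0598) and Serpinf1 (-1.77, adjusted p = 0.00654; then 0.0603) did not. Fam220a (-1.79, adjusted p = 0.0173; 1 of its 3 probes had the opposite sign) failed without either TN2 array (0.0705 and 0.128), and As3mt (-1.60, adjusted p = 0.0436) without young array 1, 2, 3, 4 or 5 or either TN2 array (0.0632 to 0.403).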

How the data were processed

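RNA was extracted with RNAzol B and amplified as biotinylated cRNA with a MessageAmp kit, per the labels' protocols. The deposited intensity table gave the mean bead brightness of 46237 probes on each of 25 arrays, neither background-subtracted nor scaled. A detection p-value was deposited beside each intensity. Its test, the scanner software and the build of the probes are not stated in the labels or headers used here. The authors' deposited log2 values had equal quartiles on every array, which marks them as quantile normalized, and served as an alternative.

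Groups came from the source labels and chips from the barcodes in the titles. Background correction from the detection p-values, an offset of 16 and quantile normalization were done by neqc (limma 3.58.1, R 4.3.3). Probes with a detection p below 0.05 on at least 3 arrays were kept (30174), and the probe with the highest mean stood for a gene (15533 genes). By the platform's annotation 35784 probes had 1 symbol, 0 several and 10453 none; gene identifiers updated 28620 and accessions 2637, and 937 symbols changed. RefSeq's table (GRCm38.p6) was used for names and gene order only, and its promoter table for the sequences.

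One limma fit took every array, with group means as coefficients and chips as random blocks (duplicateCorrelation with statmod 1.5.0, estimated at 0.00457). Tests were moderated by eBayes, two-sided, and adjusted by Benjamini and Hochberg over all genes. The shared spread was needed because TN2 and TN3 had 2 arrays each, and the number of arrays limits the precision. Where no array of a group detected a gene, its fold is a bound, taken against the mean of the dimmest detected signal on each array (or the gene's signal, if brighter). The named genes were the label genes, the 12 largest rises and 12 largest falls among passed genes whose arrays did not overlap, the 10 farthest above and below the range, up to 4 passed members of each of 25 lists, and passed genes among 50 on each side of Ptprc, predicted genes aside. The comparison, the lists and this rule were chosen with earlier results of these data known. The fit was first tested on simulated data in which 200 genes were changed. The simulated noise was independent between arrays and held no chip effect, so that test does not bear on the chips. Alternatives covered background, normalization, source of values, filter, probe choice, chip, arrays in the fit, weights, eBayes options and leaving out each array.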

Additional observations from a re-analysis of the deposited data

How the results depend on the processing

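The main numbers, 228 genes that passed against TN2 and 86 outside the TN2 to TN3 range, moved by less than 1.5 times without background correction, with the deposited log2 values, with no filter or a filter of 8 arrays, with the mean of all probes, without the chip block, with array weights and with a trended, robust eBayes. Median scaling gave 1816 and 1554, and 1413 of the latter lay below the range. With only the young, TN2 and TN3 arrays they were 35 and 10, and without array 6 of the old cells with competition 373 and 165. Only the young arrays of chip 2 gave 56 and 14, and only those of chip 4 gave 113 and 41. The cause of these shifts was not tested. Leaving out 1 young, TN2 or TN3 array in turn gave 150 to 291 and 8 to 121. The share of higher genes was 43.3% with no filter and 70.7% with that of 8 arrays. Of 1005 values of the 48 named genes under the alternatives, 0 had the opposite sign, 199 lost a call and 4 gained one. Without background correction the calls of Ets2, Dtx1, Snrpe, Rgs18, Pkd1l3 and H2-T22 ended, and with the deposited log2 values those of all of these but H2-T22. No paired analysis was possible because the labels give the groups no shared replicate numbers.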
